A study of Mus musculus with 8 samples.

Results

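The guanylate-binding proteins and immunity GTPases described here are 10 genes picked by symbol from the 32285 genes measured in single CD45+ immune cells of mouse mammary tumors. They are the guanylate-binding protein genes Gbp2, Gbp3, Gbp4, Gbp5 and Gbp7, the immunity-related GTPase genes Iigp1, Irgm1, Irgm2 and Igtp, and Irf1, which encodes a transcription factor that switches such genes on. Tumors were grown from E0771, a mouse mammary carcinoma cell line, or from E0771-Res1 or E0771-Res2, which the authors derived from E0771 tumors that came back after paclitaxel and anti-PD-1 treatment, and each of these names stands for 1 line. The tumors were taken on day 18 after implantation into C57BL/6 mice, and CD45+ cells were sorted, tagged by mouse, pooled and sequenced from the 3' end. The groups were E0771 (called parental) with mice 1 and 3, E0771-Res1 with 3 mice and E0771-Res2 with 3 mice, and the third parental mouse was not analysed here. No treatment at the time of sampling is given for these mice. Each mouse is 1 replicate and carried its own tumor.

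Guanylate-binding proteins and immunity-related GTPases are interferon-induced proteins that gather on the membranes of vacuoles holding microbes and help to break them open. Interferon gamma, which T and NK cells secrete, signals through the kinases Jak1 and Jak2 to promoters that carry a short motif called GAS. Irf1, itself induced by interferon gamma, and the factors activated by type I interferon bind a second motif, the interferon-stimulated response element or ISRE, and macrophages that have met interferon gamma are known for high levels of all these genes.

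The RefSeq promoter table of build GRCm38.p6 held 8 of the 10 genes, with 10 promoters of 300 bases, from 250 bases before to 50 after the transcription start. A search was made on both strands for the ISRE letters, GAAA and GAAA with any 2 bases between them. It found a match for 7 of the 8 genes, in 7 of their 10 promoters, and 3.44% of all 32851 promoters of the table hold one. The GAS letters TTCNNNGAA, which read the same on both strands, matched for 5 genes, in 5 of the 10 promoters, and in 8.3% of all promoters. These matches describe the sequence and are not measured binding sites. The 150 bases before the start are shown for 6 genes because they hold the interferon motifs of genes described below, with every base of a motif match in capitals and the strand of the gene read 5' to 3'.
Gbp2 (chr3:142620513-142620662, plus strand): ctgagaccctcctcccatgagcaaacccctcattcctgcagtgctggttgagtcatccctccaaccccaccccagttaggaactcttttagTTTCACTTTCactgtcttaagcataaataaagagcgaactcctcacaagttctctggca
Gbp7 (chr3:142530186-142530335, plus strand): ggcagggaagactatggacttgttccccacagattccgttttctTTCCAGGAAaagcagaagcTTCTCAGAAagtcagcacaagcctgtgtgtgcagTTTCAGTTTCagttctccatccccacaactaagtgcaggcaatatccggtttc
Irgm1 (chr11:48871421-48871570, minus strand): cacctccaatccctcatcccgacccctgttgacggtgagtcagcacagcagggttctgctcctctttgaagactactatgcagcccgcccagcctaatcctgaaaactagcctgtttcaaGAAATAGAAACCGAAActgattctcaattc
Igtp (chr11:58199406-58199555, plus strand): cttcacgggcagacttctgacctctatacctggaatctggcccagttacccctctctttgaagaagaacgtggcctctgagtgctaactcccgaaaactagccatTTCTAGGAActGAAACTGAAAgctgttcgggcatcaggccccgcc
Irgm2 (chr11:58214827-58214976, plus strand): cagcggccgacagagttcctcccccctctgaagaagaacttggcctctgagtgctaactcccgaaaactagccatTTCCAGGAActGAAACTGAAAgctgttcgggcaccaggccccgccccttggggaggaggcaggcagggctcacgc
Irf1 (chr11:53769864-53770013, plus strand): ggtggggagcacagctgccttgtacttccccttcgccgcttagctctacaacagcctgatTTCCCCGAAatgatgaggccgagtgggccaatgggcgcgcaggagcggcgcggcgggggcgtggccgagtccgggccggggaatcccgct
In Gbp2 the capitals are an ISRE that begins 59 bases before the start. Gbp7 carried both motifs, with GAS matches at 106 and 87 bases and an ISRE at 53 bases before the start. Irgm1 held overlapping ISRE matches at 30 and 24 bases. Igtp and Irgm2 shared one arrangement, a GAS match followed by an ISRE, at 45 and 34 bases in Igtp and at 75 and 64 bases in Irgm2. Irf1 had a GAS match at 90 bases and no match to the ISRE letters. Of the 2 genes that were searched but are not shown, Gbp5 held both motifs and Gbp3 held ISRE matches. Gbp4 and Iigp1 had no entry.

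In the annotation of GRCm38, which is the build called mm10, Gbp2 (chr3:142620602-142638008), Gbp3 (chr3:142560026-142573209), Gbp5 (chr3:142493978-142522344) and Gbp7 (chr3:142530342-142550149) lie near one another on chromosome 3, and Gbp4 lies on chromosome 5 (chr5:105115767-105139586). Irgm1 (chr11:48861968-48871683), Irf1 (chr11:53770014-53778374), Igtp (chr11:58199556-58207591) and Irgm2 (chr11:58199618-58222782) are on chromosome 11, and Iigp1 is on chromosome 18. The annotated bodies of Igtp and Irgm2 overlap on the same strand, those of Gbp4, Gbp8 and Gbp9 overlap on the same strand, and Irf1 overlaps Gm17334 on the other strand. The counts of these genes, and of close paralogs within both families, are uncertain to the extent that reads could not be assigned to 1 of them.

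The deposited counts of unique molecular identifiers (UMIs) ran from 5036667 to 18894504 per mouse. Of 11430 cells, 10605 had 500 to 6000 detected genes and under 10% mitochondrial counts and were kept, and no barcode was shared between mice. Marker genes put 763 cells in the lymphoid class (47 to 179 per mouse) and 8196 in the myeloid class. Of the myeloid cells, 2145 had 10 or more C1qa UMIs (C1qa-high, 101 to 539 per mouse), 4242 had at most 1 (C1qa-low, 272 to 787 per mouse), and 1809 lay between these limits. C1qa encodes a chain of complement C1q and marks tumor macrophages here, and a class cut from its count is a range rather than a cell type. Median UMIs per C1qa-high cell were 9944 to 10168 for parental, 10035 to 11458 with E0771-Res1 and 6874 to 8863 with E0771-Res2, so the E0771-Res2 cells held fewer UMIs. Levels below are counts per 1000000 UMIs of the same class and mouse (CPM). They count 3' ends and are not divided by gene length, so they are compared between cells and mice, never between genes.

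Most of these genes were lower in C1qa-high than in C1qa-low myeloid cells of the same mice, and 2 went the other way. In edgeR's quasi-likelihood test with the mouse as a block and Benjamini-Hochberg adjustment over 10156 genes, all 10 passed an adjusted p of 0.05, in a comparison in which 50% of all genes tested did. Over the 8 mice Gbp2, which encodes a GTPase that coats pathogen vacuoles, ran from 86.9 through a median of 121 to 257 CPM in C1qa-high cells. In C1qa-low cells Gbp2 ran from 200.2 through 254 to 370 CPM. The C1qa-high level was the lower of the pair in 8 of 8 mice, and parental mouse 1 alone had a C1qa-high value inside the C1qa-low range. The difference for Gbp2 was -1.10 ± 0.11 on the log2 scale (SE, adjusted p = 9.0e-10).

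Gbp5, a guanylate-binding protein that promotes inflammasome assembly, showed a difference of similar size. Its levels ran from 30.5 through a median of 45.8 to 75.6 CPM in C1qa-high cells and from 76.9 through 90.1 to 130 CPM in C1qa-low cells, so that the classes did not overlap over the 8 mice. The log2 difference was -1.17 ± 0.11 (adjusted p = 3.6e-10). Gbp3 was lower in C1qa-high cells by a log2 difference of -0.67 ± 0.08 (adjusted p = 1.9e-08), and Irf1, the transcription factor, by -0.66 ± 0.08 (adjusted p = 1.3e-07), each in 8 of 8 mice. Smaller differences in the same direction were measured for Gbp4 (-0.49 ± 0.12, adjusted p = 0.0012, 7 of 8 mice), Gbp7 (-0.42 ± 0.11, adjusted p = 0.0029, 7 of 8 mice), Irgm1 (-0.39 ± 0.09, adjusted p = 0.00069, 8 of 8 mice) and Igtp (-0.37 ± 0.10, adjusted p = 0.0047, 6 of 8 mice). Irgm1 and Igtp belong to the regulatory immunity-related GTPases, which keep the effector GTPases off the cell's own membranes. Without the mouse block, Igtp missed the threshold at -0.36.

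Iigp1, an effector GTPase that is loaded onto parasite vacuoles, was higher in C1qa-high cells in 8 of 8 mice. It ran from 54.3 through 82.7 to 166 CPM in C1qa-high cells and from 32.3 through 42.9 to 82.9 CPM in C1qa-low cells, a log2 difference of +0.76 ± 0.13 (adjusted p = 1.2e-05). Irgm2, a regulatory GTPase, was higher in C1qa-high cells in 6 of 8 mice, at +0.41 ± 0.13 (adjusted p = 0.012), and without parental mouse 1 it missed the threshold at +0.34. Myeloid cells with 2 to 9 C1qa UMIs had Gbp2 levels of 135 to 469 CPM and Iigp1 levels of 30.9 to 112 CPM, ranges that overlapped those of both other classes.

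**Figure D1:**
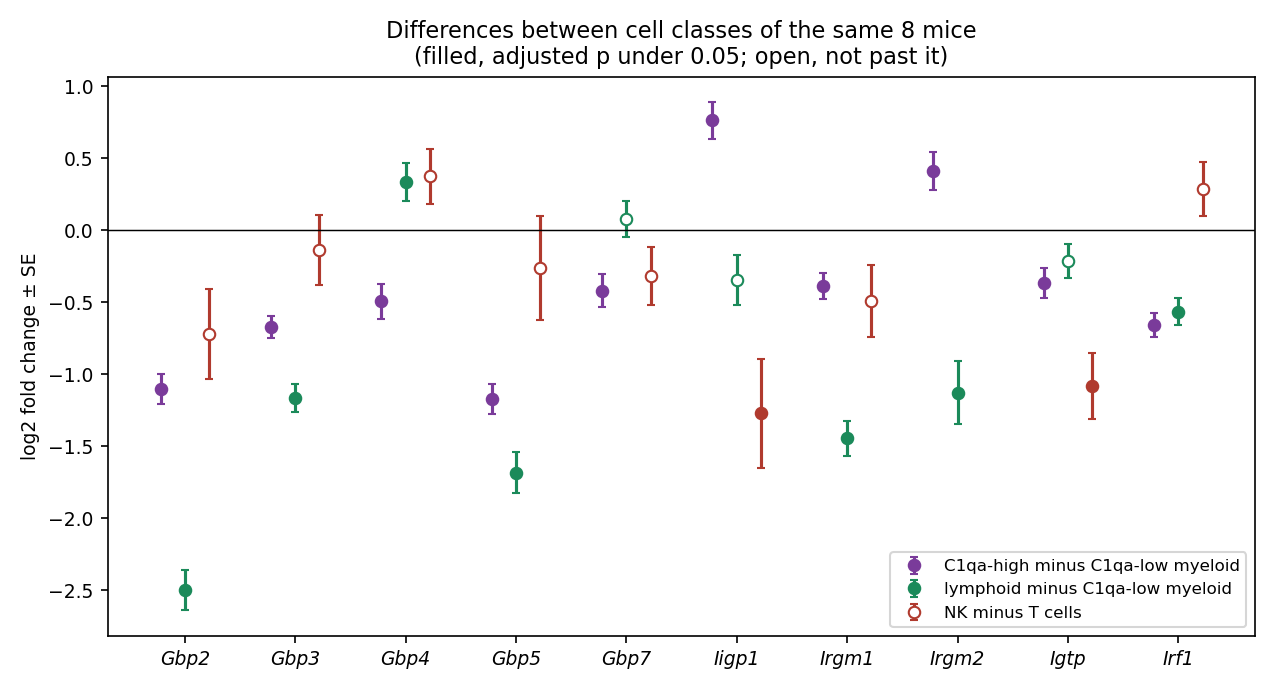
Log2 differences with standard errors (y axis) for each of the 10 genes (x axis) between cell classes of the same 8 mice. The comparisons are C1qa-high against C1qa-low myeloid cells, lymphoid against C1qa-low myeloid cells, and NK against T cells. Filled points passed an adjusted p of 0.05 and open points did not, and Iigp1 and Irgm2 are the 2 genes that were higher in C1qa-high than in C1qa-low cells.

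Lists of genes around this family were counted in the same comparison, in which 24.8% of all genes were lower and 25.2% higher. Among genes of type II interferon signalling, 14 of 20 tested were lower in C1qa-high cells, led by the kinase Jak2 (-1.27), the chemokine Cxcl10 (-1.19) and the class I transactivator Nlrc5 (-0.69). Of 21 type I interferon-stimulated genes tested, 20 were lower, led by Isg20 (-1.36), Rsad2 (-1.20) and Ifit2 (-1.07). Of 11 inflammasome genes linked to guanylate-binding proteins, 8 were lower and 1 was higher, and the lower ones were led by Il18 (-1.11), Casp4 (-0.92) and Naip5 (-0.89). Of 10 genes of the conjugation system that brings these GTPases to vacuoles, 6 were lower, led by Map1lc3a (-0.65). Other listed interferon-inducible GTPase genes counted 3 lower and 1 higher of 7 tested, a share of calls near that of all genes. Gvin1 (-0.90) and Ifi47 (-0.89) were lower and Gbp8 was higher (+0.62). Markers of other cells differed between the classes too. The summed dendritic cell markers ran from 37.7 to 107 CPM in C1qa-high cells and from 153 to 421 CPM in C1qa-low cells, and the summed neutrophil markers from 62.7 to 94.7 and from 114 to 312 CPM. The neutrophil list was led by S100a9 (-4.54) and S100a8 (-3.54), and Csf3r passed in the same direction at -0.46. Whether C1qa-low cells hold neutrophils was not tested. The part of either marker list in the class differences was not tested beyond the alternative without cells carrying dendritic markers. Under it the same number of the 10 genes, 10, passed.

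Relative to C1qa-low myeloid cells, 6 genes were lower in lymphoid cells, Gbp4 was higher, and Gbp7, Iigp1 and Igtp did not pass the test. The 7 of 10 that passed are close to the share of all genes, 69.5%, of which 33.5% were lower and 36% higher. Lymphoid Gbp2 ran from 45.3 through a median of 56.0 to 109 CPM, below every C1qa-low value, with a log2 difference of -2.50 ± 0.14 (adjusted p = 2.1e-15). Gbp5 (-1.69), Irgm1 (-1.45), Gbp3 (-1.17), Irgm2 (-1.13) and Irf1 (-0.57) were lower as well. Gbp4, a further guanylate-binding protein gene, ran from 77.3 through 115 to 140 CPM in lymphoid cells and from 51.4 through 63.1 to 84.2 CPM in C1qa-low cells, a log2 difference of +0.34 ± 0.13 (adjusted p = 0.026). That call was lost with a stricter lymphoid gate (+0.37), without cells with dendritic markers (+0.28) and without E0771-Res1 mouse 1 (+0.28), 2 (+0.31) or 3 (+0.28) or E0771-Res2 mouse 2 (+0.27).

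The genes that did not pass had differences of +0.08 ± 0.12 for Gbp7 (adjusted p = 0.58), -0.34 ± 0.17 for Iigp1 (adjusted p = 0.079) and -0.21 ± 0.12 for Igtp (adjusted p = 0.12). These fitted values use TMM factors, which correct for the composition of each class. Without them the lymphoid level was, as the median over 8 mice, 147% of the same mouse's C1qa-low level for Gbp7, 121% for Igtp and 112% for Iigp1, so the side on which Igtp and Iigp1 fall depends on that scaling. The same median was 24.0% for Gbp2, 41.3% for Gbp5 and 180% for Gbp4. For Irf1, which passed as lower, the median was 94.8% (69.7% to 114%), and the level without TMM factors was higher in lymphoid cells of 2 of 8 mice. The size of the Irf1 difference therefore depends on that scaling too. Lyz2, a lysozyme gene of myeloid cells, stood at 8.36% (4.17% to 11.6%) as a measure of myeloid RNA in lymphoid barcodes. Its part in the GTPase levels was not tested.

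Against C1qa-high cells, 8 of the 10 genes passed in lymphoid cells, where 65.9% of all genes did. Gbp4 (+0.83 ± 0.14) and Gbp7 (+0.50 ± 0.13) were higher in lymphoid cells. Irgm2 (-1.54), Gbp2 (-1.40), Iigp1 (-1.11), Irgm1 (-1.06), Gbp5 (-0.51) and Gbp3 (-0.49) were lower. Without TMM factors, Irgm2 and Iigp1 were lower in 8 of 8 mice and Gbp2 and Irgm1 in 7. Gbp3 was lower in 6 mice and Gbp5 in 5, while Gbp4 and Gbp7 were higher in 7. Igtp (+0.15 ± 0.13, adjusted p = 0.28) and Irf1 (+0.09 ± 0.10, adjusted p = 0.42) did not pass. Outside the 10 genes, 5 of the 7 other listed interferon-inducible GTPase genes passed in each of these comparisons, near the share of all genes. Gbp10 was higher in lymphoid cells by +4.94 against C1qa-low and +4.07 against C1qa-high cells, and Gbp6 by +1.39 and +1.31. Tgtp2 was lower in lymphoid than in C1qa-low cells (-1.18). Gvin1 was higher than in C1qa-high cells (+0.91), a call lost with a stricter lymphoid gate (+0.76).

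**Figure D2:**
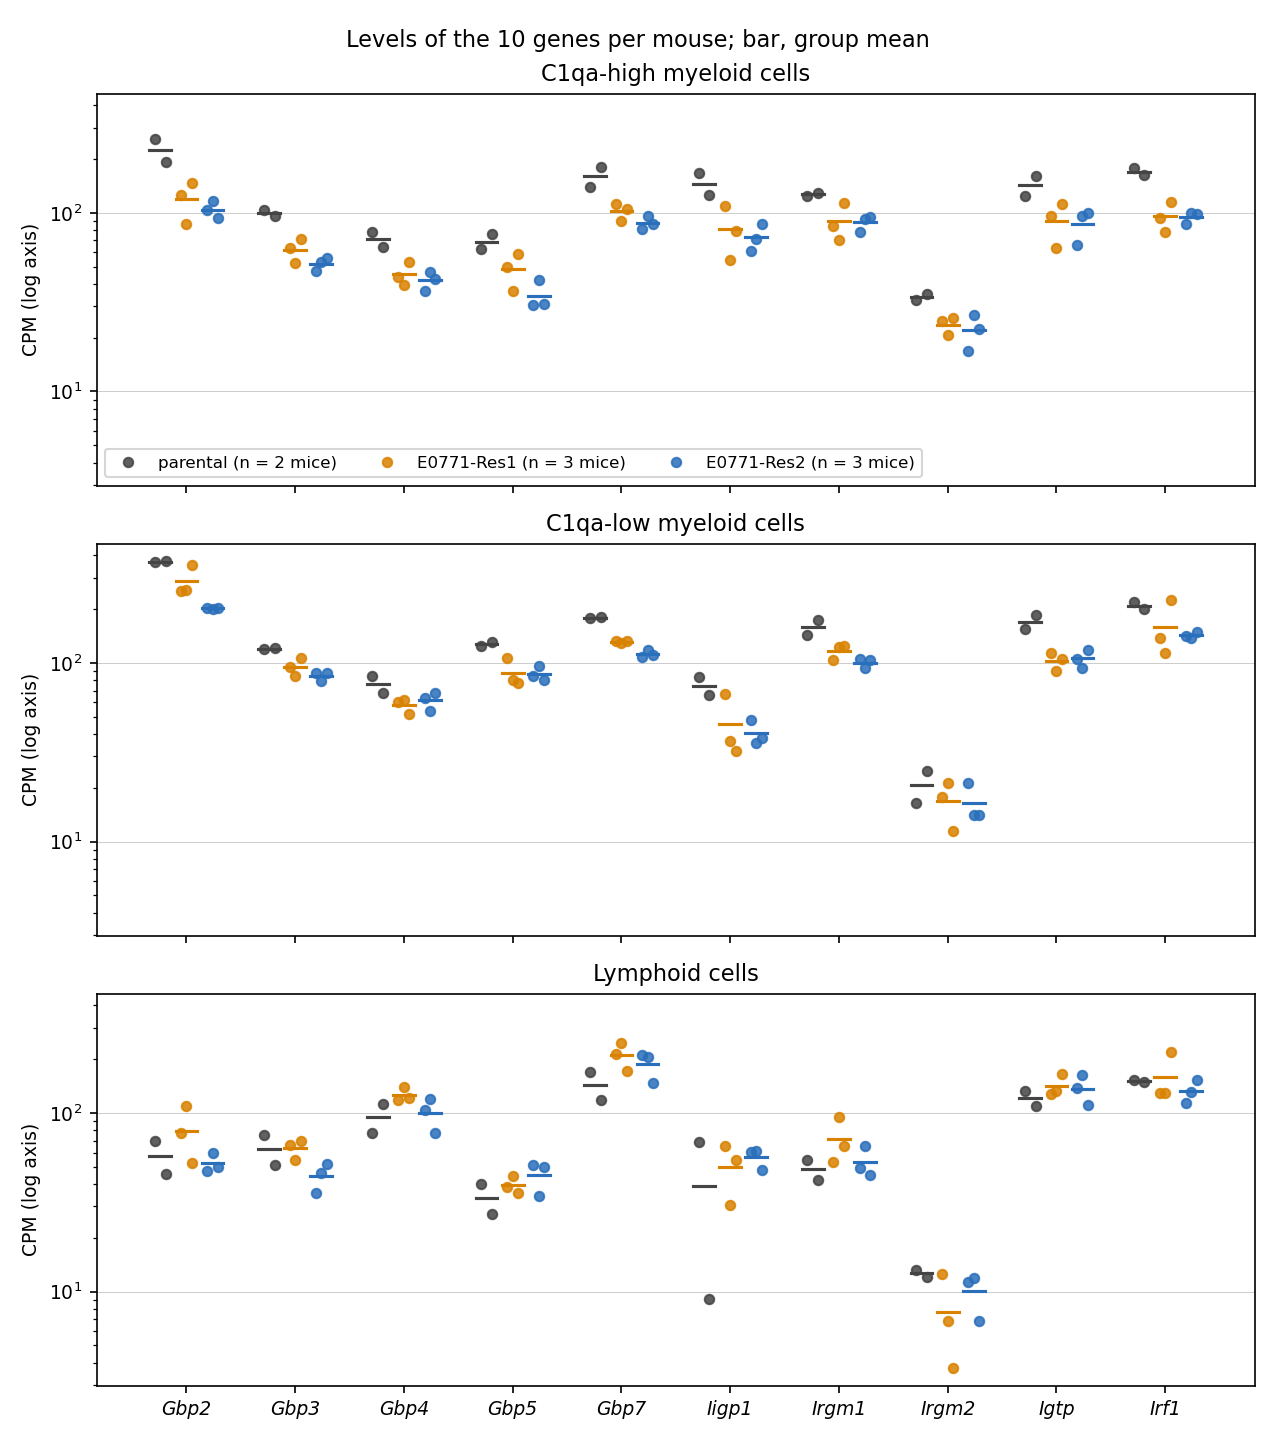
CPM on a log axis for each of the 10 genes (x axis) in lymphoid, C1qa-high and C1qa-low cells, 1 point per mouse colored by tumor line and a bar at each group mean. In C1qa-high cells all 6 points of mice with resistant lines lie below both parental points for every gene, while in lymphoid cells the lines overlap for most genes.

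Within the lymphoid class, T and NK cells differed in Ifng, which encodes interferon gamma, and in 2 of the GTPases. Ifng ran from 200.4 through 618 to 1249 CPM in NK cells (11 to 36 cells per mouse) and from 191 through 356 to 535 CPM in T cells, a log2 difference of +0.85 ± 0.19 (adjusted p = 0.0027), higher in NK cells of 7 of 8 mice. CD8 T cells had 236 to 1157 and other T cells 68.3 to 291 CPM of Ifng. Igtp was lower in NK than in T cells in 8 of 8 mice, with 19.7 through 54.5 to 148 against 115 through 150.1 to 192 CPM (-1.08 ± 0.23, adjusted p = 0.0014). The NK values of Igtp came from 2 to 29 UMIs per mouse. Its median was 97.4 CPM in CD8 T cells and 184 CPM in other T cells, so the T class was mixed. Iigp1 ran from 0 through 5.89 to 56.1 CPM in NK cells and from 8.13 through 66.8 to 78.7 CPM in T cells (-1.27 ± 0.38, adjusted p = 0.023). Thus 2 of the 9 genes tested passed, in a comparison in which 15.8% of 5652 genes did, and the fitted value of Iigp1 rests on very few NK counts. Myeloid genes were lower in NK cells too (C1qa -1.72, Lyz2 -1.21), and their part was not tested. Without E0771-Res1 mouse 3, or without parental mouse 1, 1 of the genes passed.

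In C1qa-high cells, all 10 genes stood lower in tumors of both resistant lines than in parental tumors. All 3 E0771-Res1 mice lay below both parental mice for 10 of 10 genes, where 12.5% of all genes had that order, and all 3 E0771-Res2 mice did for 10 of 10, where 17.6% of all genes did. Both comparisons use the same 2 parental mice, so they are not independent. Gbp2 was measured at 257 and 193 CPM in parental mice, at 125, 86.9 and 146 with E0771-Res1 and at 103, 117 and 93.0 with E0771-Res2. Group means were 225 ± 45.4 (SD, n = 2), 119 ± 30.0 (n = 3) and 104 ± 11.8 (n = 3) CPM. The lowest parental value was above every value from a resistant line.

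Gbp7, whose product acts in vacuole trafficking and oxidative defense, stood at 140.2 and 180.5 CPM in parental, 112, 89.8 and 105 with E0771-Res1 and 81.5, 95.9 and 86.0 with E0771-Res2. Iigp1 stood at 166 and 125 CPM in parental, 109, 54.3 and 78.6 with E0771-Res1 and 61.1, 71.7 and 86.8 with E0771-Res2. Irf1 stood at 178 and 162.5 CPM in parental, 93.9, 78.0 and 115 with E0771-Res1 and 86.3, 99.6 and 98.0 with E0771-Res2. For each of these the resistant groups overlapped one another and neither reached the parental mice. Igtp was 123.5 and 161 CPM in parental, 95.6, 63.2 and 111 with E0771-Res1 and 65.9, 95.3 and 99.9 with E0771-Res2, so parental mouse 1 and E0771-Res1 mouse 3 stood closest. The sum of the 10 genes was 1264 and 1223 CPM in parental, 802, 591 and 878 with E0771-Res1, and 606, 740 and 710 with E0771-Res2.

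In the edgeR fit over the 3 groups, 7 of the 10 genes were lower in E0771-Res2 than in parental C1qa-high cells, where 1.99% of 8892 genes passed in either direction. They were Gbp2 (-1.15 ± 0.17, adjusted p = 0.0041), Iigp1 (-1.03 ± 0.22, adjusted p = 0.026), Gbp5 (-1.02 ± 0.20, adjusted p = 0.018), Gbp3 (-0.97 ± 0.15, adjusted p = 0.0039), Irf1 (-0.87 ± 0.14, adjusted p = 0.0062), Gbp7 (-0.87 ± 0.14, adjusted p = 0.0051) and Gbp4 (-0.81 ± 0.17, adjusted p = 0.024). Values for the others were -0.71 for Igtp (adjusted p = 0.11), -0.67 for Irgm2 (adjusted p = 0.16) and -0.53 for Irgm1 (adjusted p = 0.14). The median over the 10 genes was -0.87, and that over all genes tested was 0.0021. The count rested on the parental mice: 1 gene passed without parental mouse 1, 2 without parental mouse 3 and 4 without E0771-Res2 mouse 1, with all 10 values below 0 in each case, and with a parental mouse left out the other is assumed to vary like the other groups.

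E0771-Res1 differed from parental in the same direction with fewer calls. Only Irf1 passed (-0.85 ± 0.15, adjusted p = 0.037), where 0.18% of all genes did. All 10 values were below 0, from -0.93 for Gbp2 (adjusted p = 0.053) to -0.49 for Gbp5 (adjusted p = 0.34), with a median of -0.66, and all 10 had an unadjusted p under 0.05, as did 11.8% of all genes. Irf1 missed the threshold when E0771-Res1 mouse 1 (-0.80) or 2 (-0.76), E0771-Res2 mouse 1 (-0.84) or 3 (-0.85), or parental mouse 1 (-0.79) or 3 (-0.90) was left out, and without cells with dendritic markers (-0.97), while 6 genes passed without E0771-Res1 mouse 3. Between E0771-Res2 and E0771-Res1, edgeR called 0 of the 10 genes and DESeq2 0, with 1 at an unadjusted p under 0.05 (15.8% of all genes), a median of -0.19 and 2.88% of all genes passing.

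**Figure D3:**
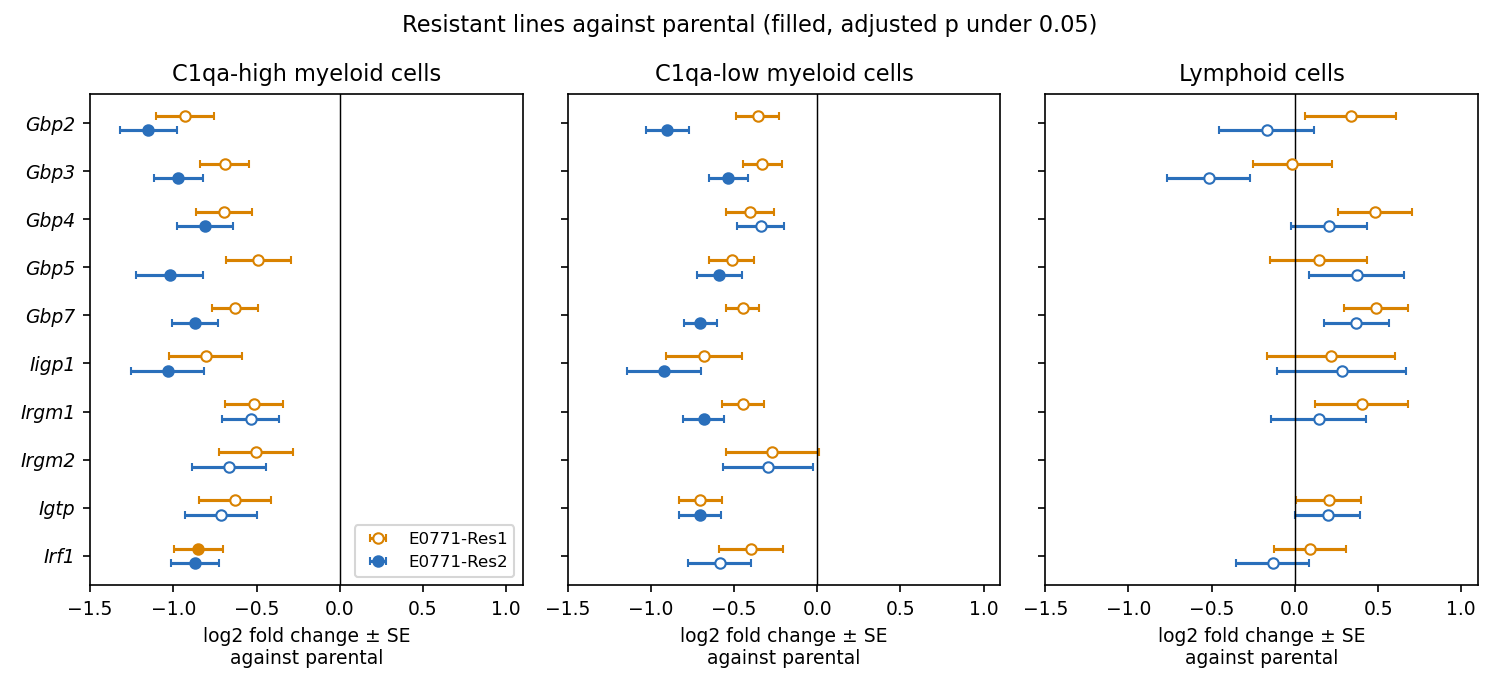
Log2 fold changes with standard errors (x axis) of E0771-Res1 and E0771-Res2 against parental for each of the 10 genes (y axis) in C1qa-high, C1qa-low and lymphoid cells. Filled points passed an adjusted p of 0.05 and open points did not, and the values in both myeloid classes lie left of 0 while most in lymphoid cells lie right of it.

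C1qa-low cells showed the same order of groups for most of the genes. Gbp2 was 367 and 369.6 CPM in parental, 253, 255.5 and 352 with E0771-Res1 and 203, 200.2 and 202 with E0771-Res2, so the 3 groups did not overlap. Gbp7 was 178 and 180.1 CPM in parental, 132, 129 and 133 with E0771-Res1 and 108, 118 and 111 with E0771-Res2, again in 3 separate ranges. Group means for Gbp7 were 179 ± 1.77 (SD, n = 2), 131 ± 2.08 (n = 3) and 112 ± 5.38 (n = 3) CPM. Igtp was 154 and 186 CPM in parental, 113, 90.5 and 105 with E0771-Res1 and 106, 93.2 and 119 with E0771-Res2, with both resistant groups below the parental one and overlapping each other. Irf1 did not keep the order, with 218 and 199.97 CPM in parental mice, 225 in E0771-Res1 mouse 3 and 113 to 149 in the other mice with resistant lines. All 3 E0771-Res1 mice were below both parental mice for 7 genes, where 13.5% of all genes had that order, and all 3 E0771-Res2 mice for 8 genes, where 17.8% did.

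In this class 7 genes were lower in E0771-Res2 than in parental mice, where 4.9% of 9617 genes passed. They were Iigp1 (-0.92 ± 0.23, adjusted p = 0.027), Gbp2 (-0.90 ± 0.13, adjusted p = 0.0015), Igtp (-0.71 ± 0.13, adjusted p = 0.0052), Gbp7 (-0.70 ± 0.10, adjusted p = 0.0014), Irgm1 (-0.68 ± 0.12, adjusted p = 0.006), Gbp5 (-0.59 ± 0.13, adjusted p = 0.018) and Gbp3 (-0.53 ± 0.12, adjusted p = 0.015). Irf1 (-0.59, adjusted p = 0.092), Gbp4 (-0.34, adjusted p = 0.2) and Irgm2 (-0.30, adjusted p = 0.6) did not pass, and the median over the 10 genes was -0.64. Without parental mouse 1 the count was 4, without parental mouse 3 it was 2, and without E0771-Res2 mouse 3 it was 4. With C1qa counted per 10000 UMIs to set the classes, 4 genes passed, and Iigp1 (-0.80), Gbp5 (-0.68) and Gbp3 (-0.47) missed the threshold.

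E0771-Res1 and parental C1qa-low cells differed in 0 of the 10 genes by edgeR, where 0.0208% of all genes passed. In that fit 8 genes had an unadjusted p under 0.05, as did 9.55% of all genes. All 10 values were again below 0, from -0.70 to -0.27, with a median of -0.42. DESeq2 called 1 of 8 to which it gave an adjusted p, and its share over all genes is not given here. Between the resistant lines in C1qa-low cells Gbp2 was the 1 gene called, with E0771-Res2 lower than E0771-Res1 by -0.54 ± 0.12 (adjusted p = 0.019), where 4.12% of all genes passed. That call was lost without E0771-Res1 mouse 3 (-0.36), E0771-Res2 mouse 1 (-0.54) or E0771-Res2 mouse 3 (-0.54), and with C1qa per 10000 UMIs (-0.49).

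A test of the difference between the line effects in C1qa-high and C1qa-low cells called 0 of the 10 genes for E0771-Res1, with 3 at an unadjusted p under 0.05 (7.5% of all genes), and 0 for E0771-Res2, with 2 (8.57%). DESeq2 called 0 for E0771-Res1 and gave no adjusted p for E0771-Res2. In edgeR 0.0101% and 0.404% of all genes passed. A line effect that differed between the myeloid classes was not detected for these genes, and the median of the difference over the 10 genes was -0.19 for E0771-Res1 and -0.25 for E0771-Res2.

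Cells were also compared at equal depth. Each cell was thinned to 2000 UMIs, and cells with fewer were left out, which kept 289 of 290, 804 of 806 and 1048 of 1049 C1qa-high cells in the parental, E0771-Res1 and E0771-Res2 groups. The share of C1qa-high cells without any UMI of the 10 genes was then 32.0% to 35.4% in parental, 39.6% to 47.6% with E0771-Res1 and 45.7% to 54.0% with E0771-Res2, and the mean number of these UMIs per cell was 2.06 to 2.11, 1.05 to 1.45 and 0.891 to 1.17. Before thinning the shares were 3.17% to 7.92%, 6.71% to 11.7% and 12.9% to 16.05%. In C1qa-low cells the thinned shares were 25.9% to 28.9%, 34.6% to 42.5% and 36.3% to 41.5%, from 737 of 783, 1267 of 1351 and 1903 of 2108 cells. Neither class had a mouse with a resistant line inside the parental range. In lymphoid cells the shares overlapped, at 30.7% to 47.9%, 29.4% to 35.1% and 33.0% to 40%. A cell without a UMI at this depth may still express the genes.

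Lymphoid cells did not show the myeloid order. Gbp7 stood at 170.3 and 118 CPM in parental, 214, 245 and 172 with E0771-Res1 and 211, 206 and 146 with E0771-Res2, and the sum of the 10 genes at 854 and 674, at 901, 987 and 959, and at 821, 898 and 738 CPM. Against parental, edgeR called 0 of the 9 genes tested for E0771-Res1, with 2 at an unadjusted p under 0.05 (4.88% of all genes), and 0 for E0771-Res2, with 0 at an unadjusted p under 0.05 (7.93%), where 0.0135% and 0.081% of 7411 genes passed. DESeq2 called 0 of 9 for E0771-Res1 and 0 of the 1 to which it gave an adjusted p for E0771-Res2. Irgm2 was too low to be tested. Of the 9 values 8 were above 0 for E0771-Res1 (median +0.22) and 6 for E0771-Res2 (median +0.20). Between the resistant lines 0 of 9 genes were called by edgeR or DESeq2, with 1 at an unadjusted p under 0.05 (6.76% of all genes) and 0.162% of all genes passing. Lymphoid sums held 47 to 179 cells a mouse, so smaller differences could not be detected there.

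Whether the line effect differed between lymphoid and myeloid cells was tested in an added fit, chosen after the comparisons above had been seen. For E0771-Res2, 1 gene passed against C1qa-high cells, where 0.44% of all genes did, and the same gene was the 1 that passed against C1qa-low cells, where 0.211% did. It was Gbp7, whose line effect was more positive in lymphoid cells by +1.22 ± 0.22 (adjusted p = 0.0074) and +1.08 ± 0.21 (adjusted p = 0.02) on the log2 scale. The median over the 10 genes was +0.95 and +0.80, and 8 genes had an unadjusted p under 0.05 in each (9.39% and 10.3% of all genes). For E0771-Res1, edgeR called 0 against C1qa-high cells, with 8 at an unadjusted p under 0.05 (8.04% of all genes) and a median of +0.88. Against C1qa-low cells edgeR called 0, with 7 (6.9%) and a median of +0.78. In edgeR 0.0192% of all genes passed in each. DESeq2 called 3 of 5 and 1 of 3 to which it gave an adjusted p, and its share over all genes is not given here. The Gbp7 calls were lost without E0771-Res2 mouse 1 (+1.07 and +0.95) and without parental mouse 3 (+0.90 and +0.92), and with a stricter lymphoid gate (+1.30 and +1.17). The call against C1qa-low cells was also lost without E0771-Res2 mouse 2 (+1.04) and without parental mouse 1 (+1.45). For E0771-Res2 the 8 myeloid markers had a median of +0.59 against C1qa-high cells, where Ms4a6c passed (+0.88), and of +0.84 against C1qa-low cells. Lymphoid C1qa stood at 354 to 418 CPM in parental, 133 to 568 with E0771-Res1 and 419 to 731 with E0771-Res2, and its part in the Gbp7 difference was not tested.

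The wider interferon pathway was followed through gene lists in the same line comparisons. For E0771-Res2 against parental, 1.3% of all genes tested passed as lower in C1qa-high cells and 2.95% in C1qa-low cells. Of genes of type II interferon signalling, 6 of 19 were lower in E0771-Res2 than in parental C1qa-high cells, led by Ciita, the MHC class II transactivator (-1.83 ± 0.23), the chemokine Cxcl9 (-1.49 ± 0.29) and Jak2 (-0.76 ± 0.17), and 6 of 21 were lower in C1qa-low cells, led by Jak2 (-0.64), Cxcl9 (-0.60) and the phosphatase Ptpn2 (-0.52). For type I interferon-stimulated genes edgeR called 0 of 21 in C1qa-high cells (4 at an unadjusted p under 0.05, with 15.1% of all genes, and 1 by DESeq2), and 3 of 21 were lower in C1qa-low cells, namely Ifih1 (-0.44), Isg20 (-0.39) and Zbp1 (-0.38). Inflammasome genes gave 1 of 11 lower in C1qa-high cells, the cytokine gene Il1b (-1.04), and 4 of 11 in C1qa-low cells, led by Il1b (-0.86), the sensor Nlrp3 (-0.79) and Il18 (-0.60). Of the other listed interferon-inducible GTPase genes Ifi47, a further immunity-related GTPase, was lower in both classes (-1.04 and -0.87), as 1 of 5 and 1 of 8 tested. The conjugation genes had 0 of 10 called in either class by edgeR or DESeq2, with 0 and 1 at an unadjusted p under 0.05 (15.1% and 19.9% of all genes). The calls of these lists depended on single mice of both groups. With parental mouse 1 or 3 left out, only 1 parental mouse remains. The C1qa-low values were then -0.58 and -0.68 for Jak2, -0.61 and -0.58 for Cxcl9, and -0.53 and -0.50 for Ptpn2. Of the 10 calls named here in C1qa-low cells, 9 were lost without parental mouse 1, 10 without parental mouse 3 and 6 without E0771-Res2 mouse 3, and of the 5 in C1qa-high cells, 2, 3 and 2 were lost. Without cells with dendritic markers Jak2 in C1qa-high cells (-0.72) and Ptpn2 (-0.47), Isg20 (-0.36) and Zbp1 (-0.33) in C1qa-low cells missed the threshold. With C1qa per 10000 UMIs 5 of the 10 in C1qa-low cells did. With the replicate number as a block Isg20 (-0.37) and Zbp1 (-0.36) in C1qa-low cells did.

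For E0771-Res1 against parental, edgeR called 0 genes of any of these lists in either myeloid class. In C1qa-high cells 8 of 19 type II, 9 of 21 type I, 3 of 11 inflammasome, 1 of 10 conjugation and 2 of 5 other listed GTPase genes had an unadjusted p under 0.05, beside 11.8% of all genes. DESeq2, which left some genes without an adjusted p, called 2, 1, 0, 0 and 1. In C1qa-low cells the unadjusted counts were 6 of 21, 14 of 21, 3 of 11, 2 of 10 and 2 of 8, beside 9.55% of all genes, and DESeq2 called 1, 3, 0, 0 and 1. Markers of other cells were summed beside these results, and their part in the line effects was not tested except as stated. In C1qa-high cells the 6 T cell markers summed to 28.2 to 32.7 CPM in parental, 27.6 to 34.8 with E0771-Res1 and 38.0 to 43.2 with E0771-Res2, so the E0771-Res2 sums lay above the parental ones with none of the markers at 0 in a whole group, and the dendritic cell markers to 48.7 to 107, 49.4 to 54.9 and 37.7 to 71.4 CPM. Epithelial markers of tumor cells summed to 3.69 to 14.7 CPM over the 8 mice. The paper counts E0771 among mesenchymal-like tumors, so a low epithelial sum cannot tell how much tumor RNA was present. Without the cells that carried dendritic markers, 7 genes passed for E0771-Res2 in C1qa-high and 8 in C1qa-low cells.

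No relation between Ifng in lymphoid cells and the myeloid levels of these genes was detected across mice. Lymphoid Ifng stood at 502 and 372 CPM in parental, 511, 592 and 373 with E0771-Res1 and 234, 427 and 316 with E0771-Res2. In this pooled class the groups overlapped. In T cells Ifng ran from 399 to 431 CPM in parental, 290 to 535 with E0771-Res1 and 191 to 314 with E0771-Res2. Every E0771-Res2 value in T cells was thus below both parental ones. The NK ranges were 200.4 to 1249, 512 to 818 and 382 to 724 CPM. A relation with the Ifng of T cells alone was not tested. Myeloid cells held 2.70 to 5.47 CPM of Ifng in the C1qa-high and 4.68 to 6.19 CPM in the C1qa-low class. These levels are per UMI of a class and leave out how many lymphoid cells a tumor held. Lymphoid cells were 168 of 1727 kept cells in parental, 316 of 3561 with E0771-Res1 and 279 of 5317 with E0771-Res2. Over all kept cells Ifng ran from 37.6 to 64.8, 41.4 to 58.1 and 21.7 to 51.4 CPM in these groups. Over 8 mice, Pearson's r between lymphoid Ifng and each gene in C1qa-high cells ran from -0.08 to 0.36, with a median of 0.21. Spearman's rho ran from -0.21 to 0.43. The lowest p of the two-sided exact permutation test was 0.382 for r (adjusted over 8892 genes, 0.9997) and 0.299 for rho (adjusted, 0.929). In C1qa-low cells r ran from -0.12 to 0.43 with a median of 0.15, and rho from -0.5 to 0.5. The lowest exact permutation p was 0.285 for r (lowest adjusted p 0.813 over 9617 genes) and 0.216 for rho (adjusted, 0.785). The median r over all genes was -0.010 and 0.0023.

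Leaving out the 2 mice farthest from the median Ifng level, E0771-Res1 mouse 2 and E0771-Res2 mouse 1, gave medians of 0.19 and 0.14. Within lines, after subtracting the group means, the medians were -0.16 (range -0.33 to 0.36) in C1qa-high and -0.29 (range -0.83 to 0.50) in C1qa-low cells. In the permutation test of Pearson's r, no gene of the 8892 or 9617 had an adjusted p under 0.05. An unadjusted p under 0.05 was reached by 3.61% and 6.71%, so with 8 mice no linear relation was detected for any gene.

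**Figure D4:**
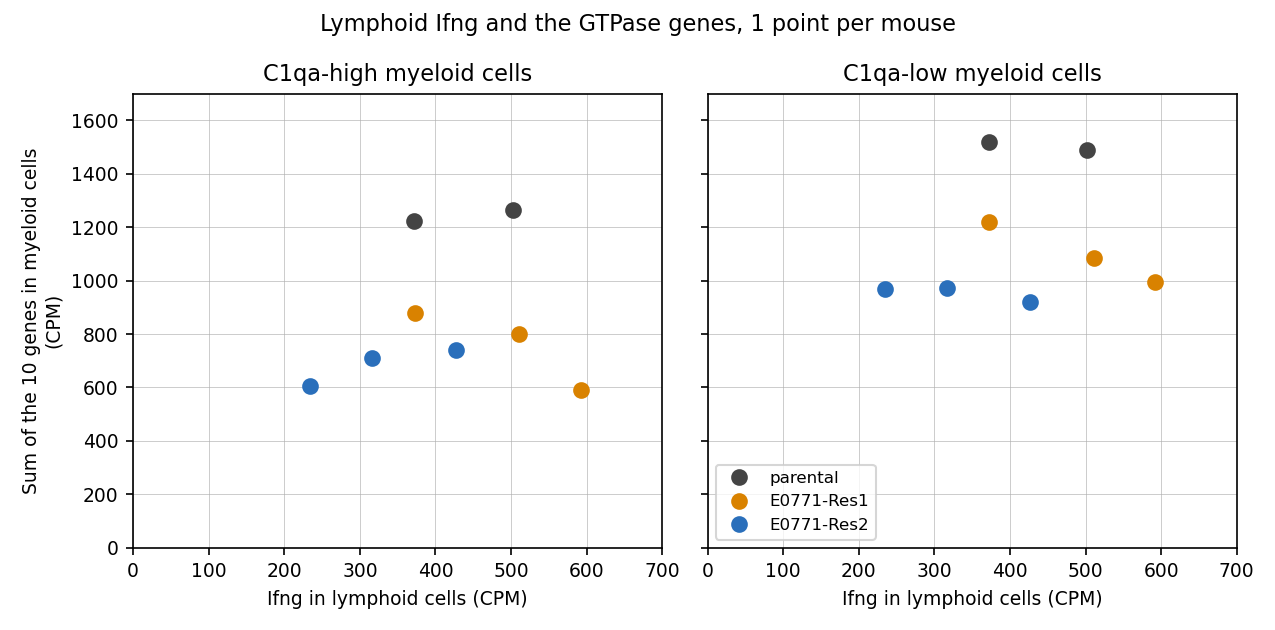
Ifng in lymphoid cells (x axis, CPM) against the sum of the 10 genes in C1qa-high and C1qa-low myeloid cells (y axis, CPM), 1 point per mouse colored by tumor line. In the C1qa-high class the parental mice sit at 1264 and 1223 and the other mice between 591 and 878, while the pooled lymphoid Ifng values of the 3 lines overlap.

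The 10 genes varied together across the myeloid sums. Over 16 sums, 2 per mouse, with each class's mean subtracted, the 45 gene pairs had a median Pearson's r of 0.777, against 0.0117 over all pairs of the 4248 genes with sufficient counts. The closest pair was Gbp2 and Gbp3 (r = 0.936), the least close Irgm2 and Irf1 (r = 0.345), and 44 of 45 pairs were above 0.5. The 2 sums of a mouse come from the same tumor, and the points include the differences between lines, so these values are a description. By the rule of standing among the 10 genes most like the largest number of members, Tap1, the peptide transporter of antigen presentation, came first, among the top 10 of 7 members (r from 0.834 to 0.961). Peli1, Ifi47, Cd86, Stat3 and Morc3 followed, each among the top 10 of 4 members.

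**Figure D5:**
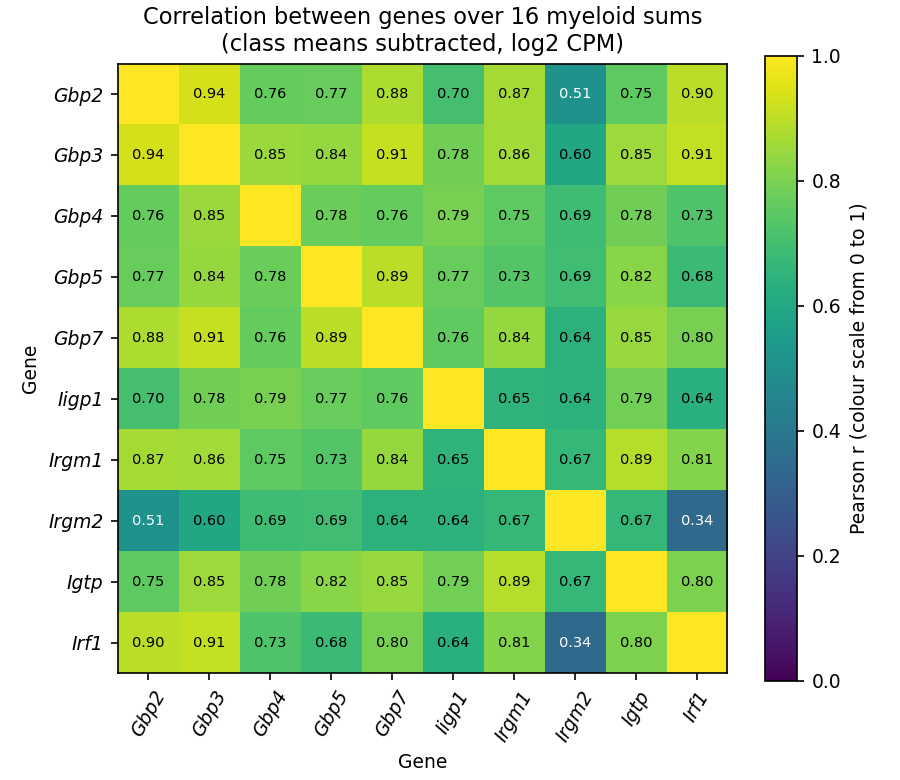
Pearson's r between each pair of the 10 genes (both axes, color scale) over 16 myeloid sums of log2 CPM with class means subtracted. Values run from 0.345 for Irgm2 with Irf1 to 0.936 for Gbp2 with Gbp3.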

How the data were processed

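Single-cell 3' RNA-seq (10x Genomics, with multiplexing tags) of CD45+ tumor cells from 8 mice was used. The authors deposited 1 matrix of raw UMI counts by gene and cell per mouse, made with Cell Ranger 6.1.2 per the file headers and mm10 per the submitters' processing notes, without normalization. Each matrix held 32285 genes, among which 40 symbols occur more than once, and 9 tags, which entered neither library sizes nor tests. Annotation was taken from GENCODE for GRCm38.

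Kept cells had 500 to 6000 genes and a mitochondrial share under 10%, and genes whose names start with mt-, Rpl, Rps or Gm were removed (23633 genes remained). No doublet caller was run, and removal of the top 5% of cells by UMIs served as an alternative. Lymphoid cells had at least 3 UMIs of T and NK markers and no more myeloid than lymphoid marker UMIs, and myeloid cells had at most 1 lymphoid and at least 5 myeloid or dendritic marker UMIs. Among lymphoid cells, T cells had at least 2 UMIs of Cd3d, Cd3e, Cd3g and Trac, and NK cells at most 1 of these and at least 2 of NK markers. The 1646 cells outside these gates were not used. Counts were summed per mouse and class, for classes of at least 10 cells. edgeR 4.0.16 (TMM, filterByExpr, glmQLFit, glmQLFTest, R 4.3.3) tested them with adjustment over all genes tested. The standard errors given with edgeR values were derived from that test, as the absolute log2 fold change over the square root of its F statistic. Comparisons between classes had the mouse as a block and line comparisons had none. Steps were tested on simulated data. The Ifng relation used exact permutation over the pairings of mice (numpy 2.4.6).

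All 10 genes were named in each comparison, and up to 3 genes per list and comparison by size of change among those that passed. Some items are not reported here. The genes, lists and gates were chosen with earlier results of these data known. Alternatives were DESeq2 1.42.0, other cell filters and gates, C1qa per 10000 UMIs, no filter on low counts, the replicate number as a block or no mouse block, and each mouse left out. Samples of a group are separate mice. Same-group mice differed by more than counting noise (chi-square per degree of freedom 2.55 to 11.7).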

Additional observations from a re-analysis of the deposited data

Results flagged for a closer look

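For Gbp7 the effect of E0771-Res2 against parental differed between lymphoid and myeloid cells of the same mice, by a test of the difference itself. The lymphoid effect exceeded that in C1qa-high cells by 1.22 on the log2 scale (edgeR, adjusted p = 0.0074) and that in C1qa-low cells by 1.08 (edgeR, adjusted p = 0.02). This fit was added after the line comparisons had been seen. Over the 10 genes the values ran from +0.35 to +1.37 against C1qa-high cells, with a median of +0.95. Against C1qa-low cells they ran from -0.03 to +1.26, with a median of +0.80. Most of these values were above 0, but only Gbp7 passed, and Gbp7 did not have the largest value. The myeloid markers also had positive medians in the same fit, as given above. Gbp7 was lower in E0771-Res2 than in parental mice in both myeloid classes, and its lymphoid difference of +0.37 ± 0.19 did not pass (adjusted p = 0.68). Both calls were lost without E0771-Res2 mouse 1 (+1.07 and +0.95), without parental mouse 3 (+0.90 and +0.92) and with a stricter lymphoid gate, and the call against C1qa-low cells also without E0771-Res2 mouse 2 or parental mouse 1. Lymphoid C1qa averaged 386 ± 45.5 (SD, n = 2) CPM in parental and 614 ± 170 (n = 3) CPM in E0771-Res2 mice, and the myeloid marker Ms4a6c passed the same test against C1qa-high cells (+0.88, edgeR, adjusted p = 0.044). Their part in the difference was not tested.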

How the results depend on the processing

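Counts of the 10 genes that passed are given here for each alternative that moved them by over 1.5 times or from or to 0, and the cause of each move was not tested. The share of all genes that passed under each alternative is not given, so these counts cannot be set beside it. For E0771-Res1 against parental, the 1 call in C1qa-high cells became 2 with C1qa per 10000 UMIs, with all deposited cells, without cells with dendritic markers and without the top 5% of UMIs, 4 with DESeq2, 8 with no filter on low counts, and 0 to 6 with a mouse left out. The 2 without cells with dendritic markers do not include Irf1. In C1qa-low cells the 0 calls became 1 with DESeq2 and without cells with dendritic markers, 5 with no filter, and 0 to 1 with a mouse left out. For E0771-Res2 against parental, the 7 calls in each class became 1 to 8 (C1qa-high) and 2 to 8 (C1qa-low) with a mouse left out and 4 with C1qa per 10000 UMIs (C1qa-low). Between the resistant lines, C1qa-high calls went from 0 to 1 with no filter and without the top 5% of UMIs, and C1qa-low calls from 1 to 0 with C1qa per 10000 UMIs and 0 to 1 with a mouse left out. With a mouse left out, 9 to 10 genes passed between the myeloid classes, 8 to 9 in lymphoid against C1qa-high and 6 to 8 in lymphoid against C1qa-low cells, and without the mouse block Igtp missed the threshold between the myeloid classes (-0.36). NK against T cells went from 2 to 1 with no mouse block and without the top 5%, and 1 to 3 with a mouse left out. The test between myeloid classes for E0771-Res1 gave 1 with no filter. For the line effect in lymphoid against C1qa-high cells, E0771-Res1 went from 0 to 2 (C1qa per 10000 UMIs, all cells, no dendritic markers), 3 (DESeq2), 4 (no filter) and 0 to 3 (mouse left out), and E0771-Res2 from 1 to 4 (DESeq2), 7 (no filter), 0 (strict lymphoid gate), 2 (without the top 5%) and 0 to 3 (mouse left out). Against C1qa-low cells, E0771-Res1 went from 0 to 1 (DESeq2) and 3 (no filter), and E0771-Res2 from 1 to 0 (strict gate), 3 (no filter) and 0 to 1 (mouse left out). DESeq2 gave no adjusted p in that last comparison or in the test between myeloid classes for E0771-Res2. Size factors of the RLE type and counting all genes moved none of these counts by over 1.5 times. Of the values of single genes, 1383 kept direction and side of the threshold under alternatives that keep all mice, 37 newly passed and 36 no longer passed, and with a mouse left out 1141 kept both, 16 newly passed and 129 no longer passed.

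Direction changed for Irgm2 in C1qa-low cells without parental mouse 3, where leaving out each mouse gave -0.59 to +0.02 for E0771-Res1 and -0.62 to 0.00 for E0771-Res2, for Igtp in lymphoid against C1qa-high cells under the strict gate (-0.04) and for Igtp in lymphoid against C1qa-low cells without the top 5% (+0.08). Deviations of same-numbered mice from their group means had correlations of -0.05 to 0.07, and those of differently numbered mice of -0.11 to 0.09. With 2 or 3 mice per group these deviations are not independent, so they cannot decide whether the replicate numbers pair mice. With the number as a replicate block, E0771-Res1 against parental gave 2 calls in C1qa-high and 1 in C1qa-low cells, E0771-Res2 against parental 7 in each, E0771-Res2 against E0771-Res1 0 and 1, and lymphoid cells 0 in each comparison.

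Limits are the 2 parental mice that both line comparisons share, the fewer UMIs per E0771-Res2 cell, 3' counts that are uncertain between overlapping paralogs, and lymphoid sums of few cells.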
